A study of Homo sapiens with 6 samples.

Results

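The genes described here are the 8 that encode the sensors of the unfolded protein response and the kinases of eIF2alpha. They are EIF2AK1, EIF2AK2, EIF2AK3, EIF2AK4, ERN1, XBP1, ATF6 and ATF6B, chosen by name from the 31762 genes of the deposited count table. Each symbol occurred in 1 row of that table. RNA sequencing covered H460 cells, a human lung cancer line labelled as wild type, in 3 control libraries and in 3 libraries of cells exposed for 24 h to 20 µM fluoxetine, an antidepressant that blocks serotonin reuptake. Its purpose was to find pathways through which fluoxetine acts on these cells. Control cells are labelled only as control, so it is not stated whether they received a vehicle. Nothing states that the replicates were independent experiments, and p-values therefore measure the spread between these libraries, which may be technical.

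Unfolded protein accumulating in the endoplasmic reticulum (ER) is sensed by 3 kinds of membrane protein. PERK, the product of EIF2AK3, phosphorylates the translation factor eIF2alpha, which lowers protein synthesis while favouring translation of the transcription factor ATF4. IRE1, the product of ERN1, removes a short intron from XBP1 mRNA in the cytosol, so that a transcription factor for ER folding and degradation genes is made, and ATF6 is carried to the Golgi apparatus and cut there to free another one. The remaining kinases converge on the same site of eIF2alpha from other stresses. HRI (EIF2AK1) responds to heme shortage and mitochondrial stress, PKR (EIF2AK2) to viral RNA and GCN2 (EIF2AK4) to amino acid shortage. In cancer cells these pathways can favour adaptation or death. The present counts measure mRNA only, neither phosphorylation, nor cleavage, nor protein.

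The sequences that matter for these genes are the element that IRE1 removes from XBP1 mRNA and the promoters of EIF2AK3, ERN1, EIF2AK2 and XBP1. The XBP1 element is shown because gene counts cannot distinguish mRNA with it from mRNA without it. It spans 26 bases of an exon on chromosome 22 (chr22:28796124-28796149, GRCh38, minus strand) and is annotated as an intron in 1 XBP1 transcript of GENCODE release 29. A second transcript places the same removal 2 bases further along, which leaves the same mRNA. Its length is not a multiple of 3, so its removal shifts the reading frame. In the sense orientation, with the removed bases in capitals, the sequence reads as follows.
XBP1 element: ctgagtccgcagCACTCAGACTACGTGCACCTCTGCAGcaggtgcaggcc
Reads from both forms of XBP1 were counted on 1 gene row, so XBP1 splicing was not measured.

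RefSeq (GRCh38.p14) gave a promoter window, 250 bases before to 50 bases after the annotated start, for 7 of the 8 genes, with 2 windows for XBP1. EIF2AK1 had no entry. The windows were searched on both strands for the ER stress response element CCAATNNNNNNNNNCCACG, the E-box CACGTG, the CRE-like TGACGTG, the CARE core TGATGNAA of ATF4, the interferon element GAAANNGAAA and the CCAAT box CCAAT, which is also contained in the first of these. The promoters of EIF2AK3 and ERN1 are shown because these genes had the largest changes, that of EIF2AK2 because it holds the interferon element, and the upstream window of XBP1 because it holds the full ER stress response element. Capitals mark every match. The windows lie at chr2:88627415-88627714 for EIF2AK3, chr17:64130095-64130394 for ERN1, chr2:37156931-37157230 for EIF2AK2 and chr22:28800520-28800819 for XBP1, all on the minus strand. The ERN1 window lies wholly within the gene as counted, which begins further upstream, at 64130819.
EIF2AK3 promoter: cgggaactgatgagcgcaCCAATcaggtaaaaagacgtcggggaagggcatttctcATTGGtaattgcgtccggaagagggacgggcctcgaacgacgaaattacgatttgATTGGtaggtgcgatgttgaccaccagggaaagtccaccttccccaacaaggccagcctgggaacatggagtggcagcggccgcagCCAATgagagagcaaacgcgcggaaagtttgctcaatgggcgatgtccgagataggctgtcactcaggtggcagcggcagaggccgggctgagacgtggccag
ERN1 promoter: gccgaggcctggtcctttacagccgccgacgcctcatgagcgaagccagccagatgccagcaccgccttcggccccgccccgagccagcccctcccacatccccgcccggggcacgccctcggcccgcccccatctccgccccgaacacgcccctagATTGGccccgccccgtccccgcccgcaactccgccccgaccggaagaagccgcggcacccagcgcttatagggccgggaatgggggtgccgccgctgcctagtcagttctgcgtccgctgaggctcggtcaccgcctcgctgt
EIF2AK2 promoter: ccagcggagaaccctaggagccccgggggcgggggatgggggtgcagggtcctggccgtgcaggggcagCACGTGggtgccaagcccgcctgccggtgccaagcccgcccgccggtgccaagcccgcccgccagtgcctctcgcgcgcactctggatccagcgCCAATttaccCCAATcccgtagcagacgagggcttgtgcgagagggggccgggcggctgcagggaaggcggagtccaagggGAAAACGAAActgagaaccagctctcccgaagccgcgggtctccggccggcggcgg
XBP1 promoter: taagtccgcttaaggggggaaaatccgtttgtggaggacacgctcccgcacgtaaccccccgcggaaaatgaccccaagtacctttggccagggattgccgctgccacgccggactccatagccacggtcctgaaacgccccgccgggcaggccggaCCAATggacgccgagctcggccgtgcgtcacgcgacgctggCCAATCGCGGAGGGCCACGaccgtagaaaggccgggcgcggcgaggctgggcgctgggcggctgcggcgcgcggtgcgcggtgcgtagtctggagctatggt
EIF2AK3 held 4 CCAAT boxes, ERN1 held 1, and EIF2AK2 held CCAAT boxes at positions -87 to -83 and -77 to -73. At least 4 CCAAT boxes, the number in EIF2AK3, occurred in 0.99% of 35116 promoter windows, and at least 1 occurred in 34.61%. EIF2AK2 held the interferon element across its start site, at positions -6 to 4, as did 3.57% of windows anywhere, and it also held 1 E-box, which 7.26% of windows contained. ATF6B held 1 E-box and 1 CCAAT box, while EIF2AK4, ATF6 and the downstream window of XBP1 held none of the 6 motifs. XBP1 held the ER stress response element at positions -52 to -34, as did 0.08% of all windows anywhere, and a CCAAT box of its own at -93 to -89. TGACGTG (1.97% of all windows) and the CARE core (3.62%) were not found in the member windows. These are matches of letters within short windows.

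The libraries held between 16157507 and 27823667 counts, and each fluoxetine library held fewer than each control library. With all libraries thinned to 16157507 counts the log2 fold changes of EIF2AK3 and ERN1 were 0.90 and 0.43, beside 0.91 and 0.42 without thinning. Of 6 carcinoma markers, the keratins KRT8, KRT18 and KRT19 were at mean levels between 312 and 1844 CPM (counts per 1000000 after TMM scaling) in the groups, whereas the keratin KRT7 had at most 20 counts, EPCAM at most 11 counts and CDH1 at most 1 count in any library. KRT18 was lower after fluoxetine (log2 fold change -0.72, edgeR adjusted p = 0.00162), and its part in the results was not tested. Of 10 markers of immune, stromal and endothelial cells, 7 were in the table, with a summed level of 5.15 to 8.02 CPM in control and 5.94 to 7.35 CPM in fluoxetine libraries, made up mostly of COL1A1, with 59 to 118 counts, and CD14, with 35 to 46 counts. PTPRC and PECAM1, which define leukocytes and endothelium, had at most 2 counts, and COL1A2, DCN and VWF at most 8.

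After fluoxetine treatment, EIF2AK3 was the single gene of the 8 whose change passed the test, rising 1.88-fold. ERN1 was 1.34-fold higher and just missed the threshold. In bulk RNA, a change in the share of cells that express a gene and a change in the RNA per cell cannot be told apart. The other 6 genes differed by between 1.01- and 1.08-fold, and their 95% intervals reached no further than 1.23-fold. A gene was called at an adjusted p under 0.05 from edgeR's quasi-likelihood test over all 15646 tested genes. The 1 called member of 8 (12.5%) is to be read against 13.1% of all tested genes called in either direction, 7.76% called as higher and 5.32% called as lower, so the share of members called was close to the background. Of all called genes 59.3% were higher, a share that was 49.2% with DESeq2. EIF2AK3 did not reach a 2-fold change, which 1.39% of all tested genes exceeded with a call. Without adjustment, p was under 0.05 in 2 of the 8 members and in at least 4435 of the 15646 tested genes. All 8 point estimates were above 0, with a median of 0.11 on the log2 scale, beside a median of 0.033 and a share of 54.2% above 0 over all tested genes. The estimates of EIF2AK1 and ATF6B turned below 0 under some settings, DESeq2 and RLE scaling among them for EIF2AK1.

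**Figure D1:**
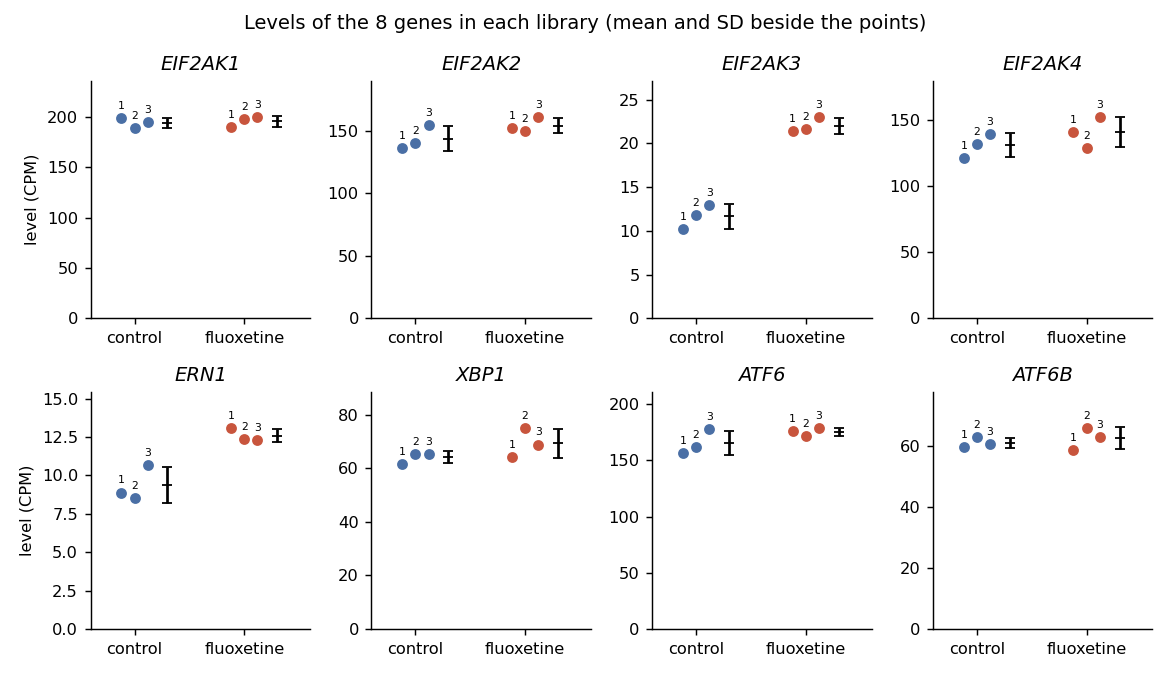
Level of each gene in CPM (vertical axes from 0) in the 3 control and 3 fluoxetine libraries, numbered by replicate, with the mean and SD over 3 libraries beside the points. Only in the panels of EIF2AK3 and ERN1 do all fluoxetine libraries lie above all control libraries, and in the other 6 panels the groups overlap.

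EIF2AK1 encodes HRI, the heme-regulated kinase. It was the most abundant member per exon length. Its level was 199, 189 and 195 CPM in control replicates 1, 2 and 3, and 190, 198 and 200 CPM in fluoxetine replicates 1, 2 and 3. The groups overlapped fully, and the log2 fold change came to 0.01 (SE 0.07, edgeR adjusted p = 0.940), with a 95% interval of 0.911- to 1.11-fold.

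EIF2AK2 encodes PKR, itself an interferon-induced gene. Its level was 136, 140 and 155 CPM in control libraries and 152, 150 and 161 CPM in fluoxetine libraries. Control replicate 3 lay within the fluoxetine group, so the groups overlapped. The estimated difference was 0.10 on the log2 scale (SE 0.08, edgeR adjusted p = 0.413), with a 95% interval of 0.957- to 1.21-fold.

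EIF2AK3 encodes PERK, the ER-resident kinase of the family. Its counts were 225, 227 and 360 in the control libraries, in order of replicate, and 353, 363 and 395 in the shallower fluoxetine libraries. After scaling, these counts gave 10.2, 11.8 and 13.0 CPM in control cells and 21.4, 21.6 and 23.0 CPM after fluoxetine treatment. The lowest fluoxetine library was thus well above the highest control library, control replicate 3. The mean was 11.7 ± 1.39 CPM in control and 22.0 ± 0.863 CPM in treated cells (SD, n = 3), and the rise came to 0.91 on the log2 scale (SE 0.12, edgeR adjusted p = 0.00101). The 95% interval ran from 1.57- to 2.26-fold, and by size of rise EIF2AK3 stood at place 325 of the 15646 tested genes.

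EIF2AK4 encodes GCN2, which senses uncharged tRNA. Its level was 121, 132 and 139 CPM in control libraries and 141, 129 and 152 CPM in fluoxetine libraries. Fluoxetine replicate 2 lay among the controls, so the groups overlapped. On the log2 scale the difference was 0.11 (SE 0.08, edgeR adjusted p = 0.448), with a 95% interval of 0.948- to 1.23-fold.

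ERN1 encodes IRE1, which combines a kinase with an endoribonuclease. It had the lowest counts of the members, 196, 164 and 296 in control libraries and 216, 208 and 212 in fluoxetine libraries. These corresponded to 8.89, 8.54 and 10.7 CPM in control cells and 13.1, 12.4 and 12.3 CPM after fluoxetine treatment. The groups did not overlap, although control replicate 3 stood apart from the other controls, towards the fluoxetine libraries. ERN1 differed by 0.42 on the log2 scale (SE 0.13, edgeR adjusted p = 0.0528), with a 95% interval of 1.10- to 1.63-fold. This call depended on the settings, since ERN1 passed the threshold in 3 of 14 alternatives, among them those with library size as the only scaling (edgeR adjusted p = 0.0495) and without control replicate 3 (edgeR adjusted p = 0.0237). Leaving out any other library than control replicate 3 kept it above the threshold, up to an edgeR adjusted p of 0.236. Groups that do not overlap were found for 31.9% of all tested genes and for 2 of the 8 members, EIF2AK3 and ERN1.

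XBP1 encodes the transcription factor whose mRNA is the substrate of IRE1. Its total level, both mRNA forms together, was 61.5, 65.3 and 65.4 CPM in control libraries and 64.2, 75.1 and 68.9 CPM in fluoxetine libraries. Fluoxetine replicate 1 lay below control replicates 2 and 3. Treated cells differed by 0.12 on the log2 scale (SE 0.08, edgeR adjusted p = 0.412), with a 95% interval of 0.953- to 1.23-fold.

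ATF6 encodes the principal membrane-bound transcription factor of the ER stress response. Its level was 157, 162 and 178 CPM in control libraries and 176, 172 and 179 CPM in fluoxetine libraries. Control replicate 3 again reached the fluoxetine range. This gave a log2 fold change of 0.09 (SE 0.07, edgeR adjusted p = 0.494), with a 95% interval of 0.95- to 1.19-fold.

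ATF6B encodes the related protein ATF6beta, a weaker activator. Its level was 59.7, 63.0 and 60.7 CPM in control libraries and 58.8, 66.0 and 62.9 CPM in fluoxetine libraries, with the controls inside the range of the treated libraries. Its log2 fold change came to 0.03 (SE 0.08, edgeR adjusted p = 0.817), with a 95% interval of 0.906- to 1.16-fold. The control library with the highest level was replicate 3 for 6 of the 8 members, and the highest fluoxetine library was replicate 3 for 5 of them.

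**Figure D2:**
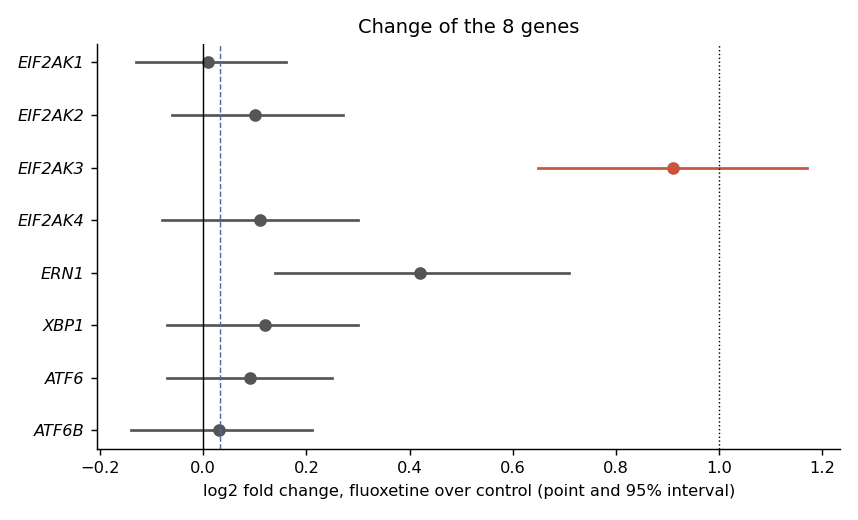
Log2 fold change of fluoxetine over control for the 8 genes (horizontal axis), as a point with its 95% interval, computed from the F statistic of the edgeR test. The dotted line marks a 2-fold rise and the dashed line the median of all tested genes, 0.033. EIF2AK3, in red, is the called gene at 0.91, ERN1 stands at 0.42 with an interval above 0, and the intervals of the other 6 genes include 0.

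Ratios of counts within a library need no scaling between libraries. EIF2AK3 was set in this way against EIF2AK1, EIF2AK2, EIF2AK4, ATF6 and ERN1, but not against XBP1 or ATF6B. The ratios with EIF2AK3 share its counts, so they are not independent of each other. EIF2AK3 counts were 5.13% to 6.64% of EIF2AK1 counts in control libraries and 10.9% to 11.5% in fluoxetine libraries. Against EIF2AK4 the ratio went from between 8.43% and 9.35% to between 15.1% and 16.7%, and against EIF2AK2 from between 7.52% and 8.43% to between 14.1% and 14.4%. Against the sensor ATF6 it was 6.50% to 7.29% in control and 12.2% to 12.9% in fluoxetine libraries. In each of these 4 ratios all fluoxetine libraries were above all control libraries. ERN1 counts were 5.27% to 6.00% of ATF6 counts in control and 6.91% to 7.44% in fluoxetine libraries, again without overlap. EIF2AK3 counts were 115% to 138% of ERN1 counts in control and 163% to 186% in fluoxetine libraries. The ERN1 to XBP1 ratio was 13.1% to 16.3% and 16.5% to 20.4% in the 2 groups. By contrast, the ratio of ATF6 to ATF6B counts overlapped between control (258% to 293%) and fluoxetine libraries (261% to 300%). A two-sided exact permutation test gave p = 0.1 for each of the first 7 of these 8 ratios, the smallest that 3 libraries against 3 allow, and p = 0.600 for ATF6 to ATF6B (adjusted over the 8 ratios, 0.114 and 0.600).

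Levels can be compared between genes only per length, here as CPM per kb of annotated exon. In control cells EIF2AK1 had the highest level at 35 ± 0.917 CPM per kb (SD, n = 3). It was followed by XBP1 at 21.2 ± 0.725 and ATF6 at 21.0 ± 1.37 CPM per kb, whose libraries overlapped. ATF6B stood at 16.8 ± 0.464, EIF2AK2 at 13.3 ± 0.916 and EIF2AK4 at 10.9 ± 0.746 CPM per kb, each without overlap with its neighbours. EIF2AK3 at 2.15 ± 0.256 and ERN1 at 0.862 ± 0.105 CPM per kb were the least abundant, so the ER-resident kinases were the rarest transcripts of the group. After fluoxetine treatment the order was the same, with EIF2AK3 at 4.05 ± 0.159 and ERN1 at 1.16 ± 0.0402 CPM per kb (SD, n = 3). With the length of the longest coding transcript instead of all annotated exon bases, a choice made after seeing the data, EIF2AK1 and XBP1 stayed in places 1 and 2 and EIF2AK3 and ERN1 in places 7 and 8, but EIF2AK4 moved from place 6 to 3 in control cells. The places between them therefore depend on the length used.

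**Figure D3:**
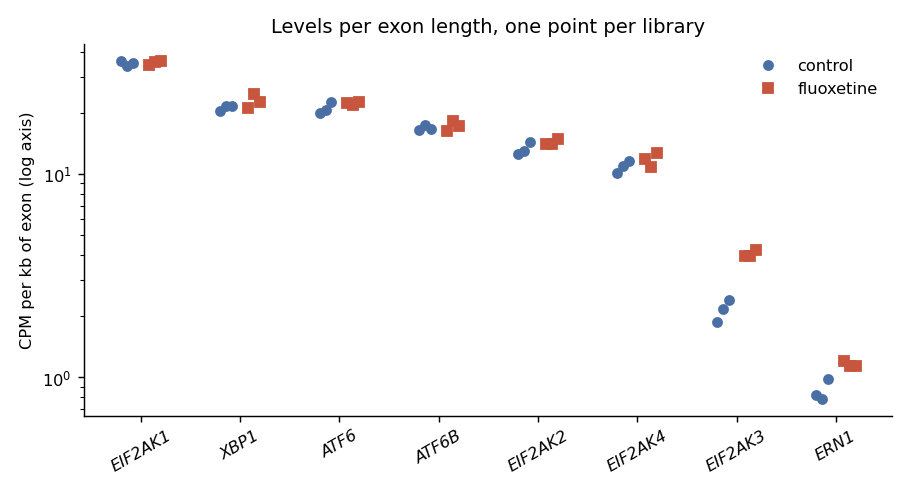
CPM per kb of annotated exon (log axis) of the 8 genes in order of their control mean, with 1 point per library, circles for control and squares for fluoxetine. EIF2AK3 and ERN1 lie far below the other genes, and EIF2AK3 moves from 1.88 to 2.39 CPM per kb in control up to 3.94 to 4.23 CPM per kb in fluoxetine libraries.

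Within the 4 eIF2alpha kinases, the summed level per kb was dominated by EIF2AK1, with a mean share of 57.1% ± 2.02 in control and 53.9% ± 1.23 in fluoxetine libraries (SD, n = 3). EIF2AK3 made up 3.11%, 3.61% and 3.75% in the control libraries and 6.16%, 6.16% and 6.23% in the fluoxetine libraries. PERK mRNA thus remained the rarest of the 4 kinase mRNAs in every library. EIF2AK2 held 21.7% ± 0.878 and 21.9% ± 0.184, and EIF2AK4 17.8% ± 0.883 and 18.0% ± 1.03. The order of EIF2AK2 and EIF2AK4 depends on the length used. Per kb of the longest coding transcript they stood at 14.3 and 23.7 CPM in control cells. Among the 4 ER sensor genes, EIF2AK3 went from 5.24% ± 0.399 to 9.05% ± 0.267 and ERN1 from 2.11% ± 0.189 to 2.60% ± 0.143, beside ATF6 at 51.4% ± 1.33 and 49.8% ± 1.37 (SD, n = 3). The sums include ATF6B, whose annotated length is uncertain.

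Neighbouring genes could have added reads to some members, since it is not stated whether the counting used the strand. EIF2AK3 (ENSG00000172071, chromosome 2, 88556741 to 88627576, minus strand) is overlapped on the other strand by AC104134.1, with at most 1 count per library, over 14.37% of its exon bases, and by AC062029.1 over 0.70%. AC062029.1 had a mean count of 23.0, against 320 for EIF2AK3, and a log2 fold change of 0.62 (edgeR adjusted p = 0.306). No gene of the annotation overlaps ERN1 (ENSG00000178607, chromosome 17, 64039142 to 64130819, minus strand) or XBP1 (ENSG00000100219, chromosome 22, 28794555 to 28800597, minus strand). EIF2AK1 (ENSG00000086232, chromosome 7, 6022244 to 6059230, minus strand) shares 9.59% of its exon bases with AIMP2 on the other strand, which had a mean count of 842 and a log2 fold change of -0.19 (edgeR adjusted p = 0.411). EIF2AK2 (ENSG00000055332, chromosome 2, 37099210 to 37157065, minus strand) shares 3.73% with the pseudogene AC007899.1, which had at most 1 count per library, and 0.33% with GPATCH11, which had a log2 fold change of -0.05 (edgeR adjusted p = 0.800). EIF2AK4 (ENSG00000128829, chromosome 15, 39934146 to 40035591, plus strand) and ATF6 (ENSG00000118217, chromosome 1, 161766294 to 161964070, plus strand) share no exon bases with another gene. ATF6B (ENSG00000213676, minus strand of chromosome 6) spans 32098176 to 32128253 in the deposited table but starts at 32115264 in GENCODE release 29, so its level per kb is uncertain. In the annotation it shares 7.96% of its exon bases with AL662884.2 on the same strand, a gene not analysed here, and 1.96% with TNXB, whose log2 fold change was 0.11 (edgeR adjusted p = 0.603). The positions of the other 7 genes were identical in both.

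The genes whose profile over the 6 libraries was most like that of EIF2AK3 were BNIP3L, TMEM154 and COL4A3BP. Likeness was the root mean square difference in log2 CPM, each gene centred on its own mean, over 11238 other tested genes with at least 100 counts on average. The distances were 0.0514, 0.0524 and 0.0614, and the log2 fold changes of these genes were 0.95, 0.88 and 0.86. Fold changes near that of EIF2AK3 follow from this choice, which used the same 6 libraries. BNIP3L encodes a receptor for the removal of mitochondria by autophagy, and COL4A3BP encodes a ceramide carrier between the ER and the Golgi apparatus.

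Several genes of the circuit on which the kinases act fell after fluoxetine treatment. Of 15 genes for subunits of eIF2, of its exchange factor eIF2B and of the eIF2alpha phosphatases and for the initiation factors EIF2A and EIF2D, all tested, 5 fell and 1 rose, with a median log2 fold change of -0.15. This is 40.0% of the list, beside 13.1% of all tested genes. The list was chosen with earlier results of these data known, and all tested genes were not matched to it by level, so the shares are descriptive only. EIF2S1, which encodes eIF2alpha itself, fell from 285 ± 13.8 to 232 ± 12.9 CPM (SD, n = 3), by 0.30 on the log2 scale (edgeR adjusted p = 0.0241). EIF2S2, the beta subunit, named beyond the 4 smallest p-values after its value was seen, fell by 0.27 on the log2 scale (edgeR adjusted p = 0.0441). The eIF2B genes EIF2B3 and EIF2B5 fell by 0.41 and 0.38, with edgeR adjusted p = 0.0102 and 0.0134. PPP1CC and PPP1CB encode catalytic subunits of the phosphatase, and the former fell by 0.30 while the latter rose by 0.29 (edgeR adjusted p = 0.0147 and 0.0234). PPP1R15A, the inducible subunit GADD34 that directs the phosphatase to eIF2alpha, had a log2 fold change of 0.17 (edgeR adjusted p = 0.354). These calls rested in part on single libraries, since 0 genes of the list passed the test in either direction without fluoxetine replicate 1 and only 2 fell without fluoxetine replicate 3, while 4 to 7 fell under the other alternatives. The rise of PPP1CB was not called when any library other than control replicate 3 was left out.

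Of 26 genes for proteins that bind, activate, restrain or process the sensors and kinases, all tested, 2 passed the test, both lower after fluoxetine. This share of 7.69% was below the 13.1% of all tested genes, and the median log2 fold change was -0.04 over the list. Without control replicate 3 the number lower was 4, and without control replicates 1 or 2 or fluoxetine replicates 1 or 3 it was 1. SERPINH1, the collagen chaperone HSP47 that also binds IRE1, fell from 145 ± 14.1 to 92.4 ± 3.95 CPM (SD, n = 3; log2 fold change -0.65, edgeR adjusted p = 0.00120). RTCB, the ligase that rejoins XBP1 mRNA after IRE1 has cut it, fell by 0.30 on the log2 scale (edgeR adjusted p = 0.0262). DNAJC3, a co-chaperone that inhibits PERK, had a log2 fold change of 0.28 (edgeR adjusted p = 0.0854). The Golgi proteases that cut ATF6, MBTPS1 and MBTPS2, had log2 fold changes of 0.12 and 0.11 (edgeR adjusted p = 0.412 and 0.601), and GCN1, the activator of GCN2, of -0.05 (edgeR adjusted p = 0.751).

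In the ATF4 branch, to which the eIF2alpha kinases lead, 6 of 23 tested genes rose and 1 fell, with a median log2 fold change of 0.24. By point estimate alone, 15 of the 23 were higher and 8 lower. The share called was 30.4%, beside 13.1% of all tested genes. The number that rose was 4 to 8 over the alternatives, with 4 of 23 left without control replicate 2 or fluoxetine replicates 1 or 2. None was called as lower without fluoxetine replicates 1 or 3, and 3 were without control replicate 3. The mRNA of ATF4, which is controlled mainly in translation, was 273 ± 38.0 CPM in control and 258 ± 27.1 CPM in fluoxetine libraries (SD, n = 3; log2 fold change -0.08, edgeR adjusted p = 0.674). DDIT3, which encodes CHOP, rose by 1.23 on the log2 scale (edgeR adjusted p = 0.00142). ATF3, a stress-induced repressor, rose from 5.60 ± 0.424 to 10.7 ± 0.672 CPM (SD, n = 3; log2 fold change 0.94, edgeR adjusted p = 0.00158). NUPR1, a small stress-induced chromatin protein, rose by 3.0 and STC2, a secreted glycoprotein, by 0.50 on the log2 scale (edgeR adjusted p = 1.47e-04 and 0.00103). NUPR1 was low in both groups, with 7, 6 and 8 counts in control and 37, 47 and 41 counts in fluoxetine libraries, so its fold change is imprecise. TRIB3 and GDF15, named beyond the 4 smallest p-values after their values were seen, rose by 0.48 and 0.96 (edgeR adjusted p = 0.0443 and 0.0397). MTHFD2, a mitochondrial folate enzyme, fell by 0.30 (edgeR adjusted p = 0.0170). ASNS, asparagine synthetase, was low in both groups and had a log2 fold change of 0.90 (edgeR adjusted p = 0.155). Of the better counted genes of amino acid transport and synthesis, SLC7A5, PSAT1, SLC3A2 and PHGDH had log2 fold changes of -0.25, -0.11, -0.09 and -0.03 without a call. SLC7A11 had one of 0.38, also without a call (edgeR adjusted p = 0.0678).

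Among 28 known targets of spliced XBP1, all tested, 3 rose and 1 fell, with a median log2 fold change of 0.04. The share called, 14.3%, was close to the 13.1% of all tested genes. The number that rose was 1 without control replicate 2 or fluoxetine replicates 1 or 3, and 5 without control replicate 3. None was called as lower without fluoxetine replicates 1 or 3, and 2 were without control replicate 3. DNAJB9, the ER co-chaperone ERdj4 that holds IRE1 inactive, rose from 8.80 ± 0.416 to 14.6 ± 1.23 CPM (SD, n = 3; log2 fold change 0.74, edgeR adjusted p = 0.00363). SEC24D, a coat protein of vesicles leaving the ER, and TXNDC11 rose by 0.35 and 0.33 on the log2 scale (edgeR adjusted p = 0.0405 and 0.0160). SRPRB, a subunit of the receptor that brings ribosomes to the ER, fell by 0.32 (edgeR adjusted p = 0.0184). EDEM1, which acts in ER-associated degradation, had a log2 fold change of 0.27 (edgeR adjusted p = 0.165). Of 7 mRNAs known to be degraded by IRE1, 5 were tested and 2 passed (40.0%, beside 13.1% of all tested genes), or 1 without control replicate 2 or fluoxetine replicates 1 or 3. The 2 were HGSNAT and PMP22, both higher, with log2 fold changes of 0.48 and 0.36 (edgeR adjusted p = 0.00458 and 0.0105). COL6A1, SCARA3 and PDGFRB had log2 fold changes of 0.27, -0.16 and -0.05 without a call. BLOC1S1 and SPARC were too low to be tested, with at most 14 and 3 counts in any library.

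Of 15 ER chaperone and degradation genes known as ATF6 targets, all tested, 2 passed the test, both higher, with a median log2 fold change of 0.08. The share called, 13.3%, was close to the 13.1% of all tested genes. The number that passed was 1 with RLE scaling and without control replicates 1 or 2 or fluoxetine replicates 1 or 3. HERPUD1, a membrane protein of ER-associated degradation, rose from 45.3 ± 1.40 to 69.3 ± 1.84 CPM (SD, n = 3; log2 fold change 0.61, edgeR adjusted p = 8.31e-04). CANX, the chaperone calnexin, rose by 0.29 on the log2 scale (edgeR adjusted p = 0.0412). HSPA5, which encodes BiP, the chaperone that keeps all 3 sensors inactive, was at 1943 ± 115 CPM in control and 2044 ± 107 CPM in fluoxetine libraries (SD, n = 3; log2 fold change 0.07, edgeR adjusted p = 0.588). The paralogs of the membrane-bound factors included CREB3L2, which rose by 0.41 (edgeR adjusted p = 0.0356) but was not called without control replicates 1 or 2 or fluoxetine replicates 1 or 3, and CREB3 and CREB3L4, at -0.10 and -0.05 (edgeR adjusted p = 0.581 and 0.884).

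Genes tied to the input of PKR and HRI were described in the same way. Of 39 tested interferon-stimulated genes, 3 rose and 3 fell, with a median log2 fold change of 0.15. The share called, 15.4%, was close to the 13.1% of all tested genes. The number that rose was 1 without control replicate 1 or fluoxetine replicate 2, 0 without control replicate 2 or fluoxetine replicates 1 or 3, and 4 without control replicate 3. The number that fell was 1 without control replicate 2 or fluoxetine replicate 1. IFI35, IFIT3 and SAMD9L rose by 0.39, 0.48 and 0.50, and OASL, PSMB9 and EPSTI1 fell by 1.03, 0.56 and 0.63 on the log2 scale, with edgeR adjusted p between 0.00939 and 0.0471. OASL was low, with 44, 33 and 43 counts in control and 14, 13 and 16 counts in fluoxetine libraries. The 13 heme genes, those of heme synthesis, breakdown and transport and the regulator BACH1, were all tested. Of these, 3 passed the test, all of them higher (23.1%, beside 13.1% of all tested genes). None of the 3 encodes an enzyme of heme synthesis. The number that passed was 1 without control replicate 2 or fluoxetine replicate 1, and 2 without control replicate 1. HMOX1, the heme-degrading enzyme that is also induced by oxidative stress, rose from 44.6 ± 4.76 to 83.7 ± 12.6 CPM (SD, n = 3; log2 fold change 0.91, edgeR adjusted p = 0.00117). BACH1, a heme-binding repressor, and FLVCR1, a heme exporter, rose by 0.62 and 0.47 (edgeR adjusted p = 0.00955 and 0.0118). ALAS1, the first enzyme of heme synthesis, had a log2 fold change of 0.11 (edgeR adjusted p = 0.330).

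**Figure D4:**
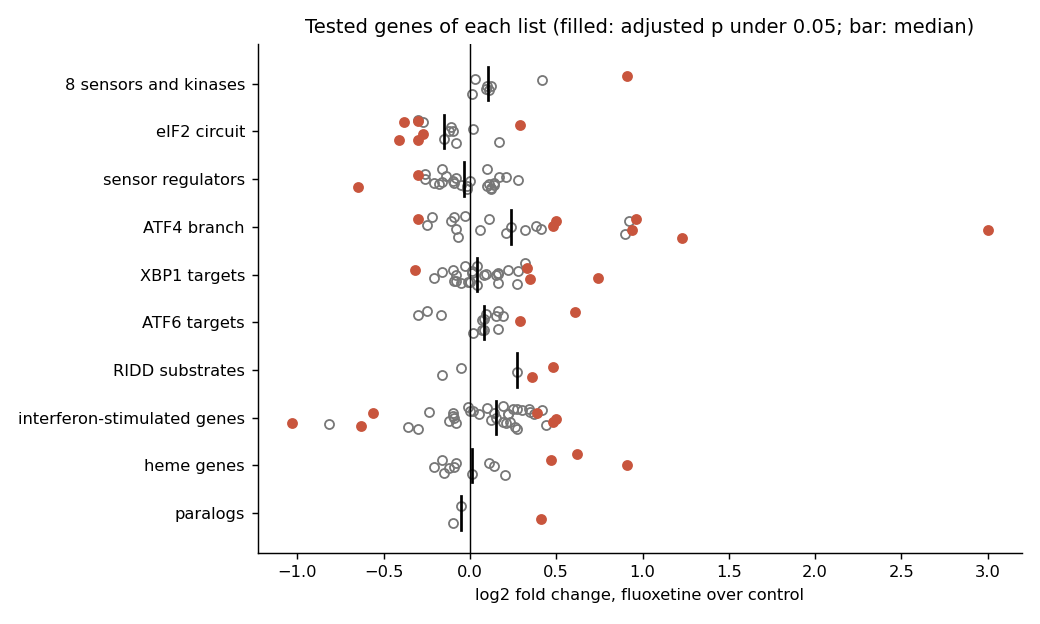
Log2 fold change of fluoxetine over control (horizontal axis) of every tested gene of the 8 sensors and kinases and of 9 lists of related genes. Filled points passed an adjusted p under 0.05 and the bar is the median of the list. The eIF2 circuit lies mostly below 0, with a median of -0.15, while the ATF4 branch has a median of 0.24 and reaches 3.0 with NUPR1. NUPR1 had at most 8 counts in any control library.

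The value of EIF2AK3 changed little with the processing. Its log2 fold change was between 0.79 and 0.97 over 14 alternatives, and it was called in all 14 of them, with an adjusted p of at most 0.0126. The lowest value came without control replicate 1, which had the lowest control level, and the highest without control replicate 3, which had the highest. The spread among control libraries, 11.9% of the mean, was wider than among fluoxetine libraries, 3.92%, and counting error in the library with the fewest EIF2AK3 counts was 6.67%. For ERN1 the corresponding values were 12.1%, 3.47% and 7.81%.

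**Figure D5:**
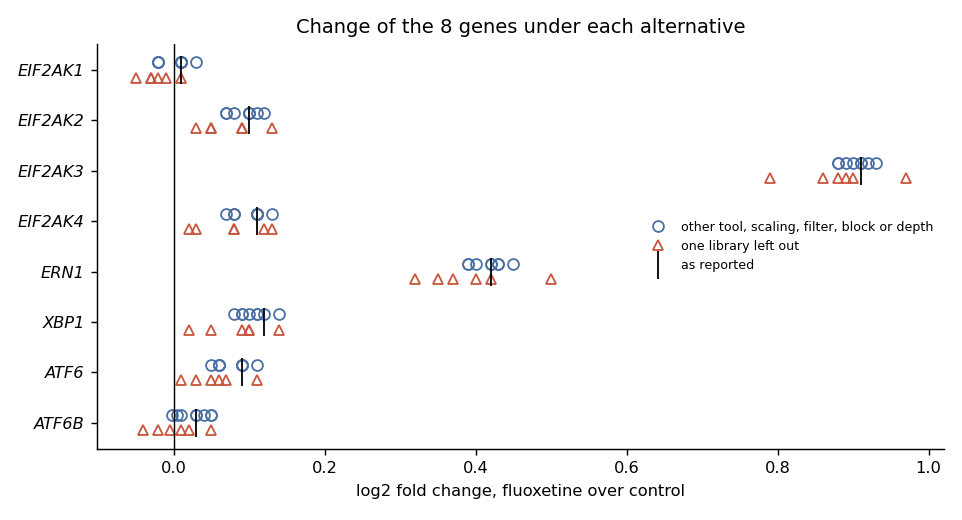
Log2 fold change of fluoxetine over control (horizontal axis) of the 8 genes as reported (bars), under 8 alternatives of tool, scaling, filter, block or depth (circles) and with 1 library left out (triangles). EIF2AK3 stays between 0.79 and 0.97 and ERN1 between 0.32 and 0.50, while EIF2AK1 and ATF6B scatter around 0.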

How the data were processed

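RNA of H460 cells was sequenced in 3 control and 3 fluoxetine (20 µM, 24 h) libraries. The authors deposited a single table of unnormalized read counts, in which 31762 genes are rows and each library has a count column of its own. The deposited log2 fold change and the deposited p-value columns of the authors' own comparison were not used. The submitters' processing notes name fastp 0.20.0, HISAT2 2.1.0, HTSeq 0.10.0 and DESeq2 1.18.1. The genome build and strand setting are not given in the sources used here, and 96.81% of genes shared with GENCODE release 29 (GRCh38) had the same position there. No molecular identifiers are described. A floor of 3 counts was worth 0.108 to 0.186 CPM and covers counting error only.

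Differential expression used edgeR 4.0.16 under R 4.3.3 (filterByExpr, TMM, glmQLFit and glmQLFTest, no covariate) and Benjamini-Hochberg adjustment over 15646 genes. CPM was computed with TMM library sizes. Exon length was the union of annotated exons. Scripts were tested on simulated counts. Alternatives were DESeq2 1.42.0, limma-voom (limma 3.58.1), RLE scaling, library size only, 2 other filters on low counts, the replicate number as a block, thinning to 16157507 counts and leaving out each library. Replicates of a group differed by more than sampling noise (chi-square per degree of freedom 3.72 to 24.2), and all 6 libraries were kept. The largest values were those of control replicate 3, 24.2 against control replicate 1 and 13.7 against control replicate 2. Control replicates 1 and 2 differed by 6.10.

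The members and the lists of related genes, written from general knowledge, were chosen with earlier results of these data known. Of 193 listed symbols, 187 were in the table. Named were the 8 genes, HSPA5, ATF4 and DDIT3, up to 4 called genes per list and direction by smallest p, genes overlapping a member and the 3 genes most like each called member. Other list genes named without a call were chosen for their role after their values were seen.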

Additional observations from a re-analysis of the deposited data

How the results depend on the processing

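Over 14 alternatives, EIF2AK3 was called in all, and EIF2AK2, EIF2AK4, XBP1 and ATF6 kept their direction without a call in any. The number of members called as higher went from 1 to 2, through ERN1, with library size only (log2 fold change 0.45) and with the replicate block (0.43, edgeR adjusted p = 0.00659), and lay between 1 and 2 when 1 library was left out; ERN1 reached 0.50 without control replicate 3 and 0.32 without control replicate 2. The log2 fold change of EIF2AK1 turned to -0.02 with DESeq2, RLE scaling and no filter on low counts, and lay between -0.05 and 0.01 with 1 library left out. That of ATF6B turned to -0.0017 without a filter, and lay between -0.04 and 0.05 with 1 library left out, -0.02 without control replicate 1 and -0.0042 without control replicate 3. The cause was not tested.

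Same-numbered libraries correlated in their deviations from the group means at 0.03, 0.12 and 0.39, and control replicate 1 correlated best with fluoxetine replicate 2 (0.32), so the numbers were not taken to pair the samples. With the block, the list genes called as higher went from 21 to 32, among them the interferon-stimulated genes from 3 to 8, and the calls over all genes from 1214 to 2231 as higher and from 833 to 1787 as lower. With 1 library left out, the list genes called were 8 to 26 as higher and 2 to 20 as lower, 12 with all libraries. Over all genes, 409 to 1627 were called as higher and 163 to 2006 as lower with 1 library left out, and 1516 as lower with no filter. Of all called genes, 59.3% were higher, beside 49.2% with DESeq2. The order of members per kb changed with the transcript length used, as given with the levels.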
